A study of Rattus norvegicus with 26 samples.

Results

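Transcript levels of chemokines and chemokine receptors were followed in rat spinal cord after compression injury and after transplantation of hUC-MSCs, human mesenchymal stem cells from umbilical cord. The genes were those whose symbol begins with Ccl, Cxcl, Xcl, Ccr, Cxcr, Xcr or Ackr followed by a number, and that had at least 10 counts in at least 3 libraries. Of the 32883 genes counted, 53 carried such a name and 47 met the minimum. Ccl1, Ccl25, Ccl26 and Ccl28 reached 10 counts in no library, Ccl11 reached them in 1 library and Ccr8 in 2, so these 6 genes were set aside. Just above the minimum stood Ccr4 and Ccr9, with 3 such libraries each, and Xcl1 with 4. All 47 genes passed edgeR's filter on low counts. Values for Ccr2 and Ackr1 were not analysed here.

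Every rat was wild type, female and of the Sprague-Dawley strain, with a weight of 250 g, and the labels give postnatal day 70 for every group. The 4 Intact libraries came from rats labelled untreated, which the study's text calls intact or sham. In all other groups the cord had been compressed at T10 for 1 min by an aneurysm clip that closed with 60 g. The 3 sub-SCI libraries were taken at the time of transplantation, 7 days after injury. Injured rats that received vehicle gave 3 +PBS-1w, 2 +PBS-2w and 4 +PBS-4w libraries, taken at week 1, 2 or 4 after transplantation (wpt). The labels describe these only as being without MSC, and the vehicle, PBS, is named in the methods. Injured rats that received hUC-MSCs into the intrathecal space gave 3 libraries at 1 wpt (+MSC-1w), 3 at 2 wpt (+MSC-2w) and 4 at 4 wpt (+MSC-4w). RNA came from 5 mm of cord around the lesion. According to the methods, rats received the immunosuppressant cyclosporin A daily, and reads that mapped to the human genome were removed before counting. The levels given below are therefore those of rat transcripts. Only the rats of the +MSC groups received human cells. The methods do not say whether the Intact rats also received cyclosporin A. The methods call the libraries biological replicates, but the labels tie none of them to an animal, so the p-values measure the spread between these libraries.

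Chemokines are small secreted proteins that guide migrating leukocytes, and most of them bind G protein-coupled receptors on those cells. The names follow the spacing of conserved cysteines, with CC, CXC and XC ligands and CCR, CXCR and XCR receptors. Atypical receptors (ACKR) bind chemokines without the usual G protein signal and mainly remove them. In injured spinal cord, chemokines from glia, endothelial cells and infiltrating cells are known to attract neutrophils, monocytes and T cells, and CXCL12 with its receptor CXCR4 also guides progenitor cells.

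Total counts per library lay between 19496602 and 43468509, so that 1 count was worth 0.0219 to 0.0546 CPM (read counts scaled to the library's total, with edgeR's TMM factor). The 47 genes together took 0.0221% to 0.0301% of the counts in Intact and 0.0673% to 0.0802% in sub-SCI, and up to 0.146% in the other libraries. The library +PBS-1w replicate 2 stood apart for several ligands, as given below. Replicate 1 libraries of the compared groups deviated together from their group means in 6 of 8 comparisons (correlation across genes over 0.1), and replicate 3 libraries in 4 of 6. Some of the results below, but not all, are also given without the replicate 1 libraries. Defining markers of neurons, oligodendrocytes and astrocytes were present in every group. Cldn5, on the list of endothelial markers, had no count in any group.

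Summed markers of macrophages and of T and NK cells were higher after injury, and so were those of microglia, which reside in the cord. The 6 microglia markers summed to 251 to 321 CPM in Intact, 578 to 751 CPM in sub-SCI and 470 to 614 CPM in +PBS-4w. Whether cells behind these lists had infiltrated or were resident was not tested. The summed level of 8 macrophage and monocyte markers lay between 82.5 and 308 CPM in Intact, between 9350 and 11854 CPM in sub-SCI and between 5235 and 9124 CPM in +PBS-4w. That of 8 T and NK cell markers lay between 21.0 and 30.4 CPM in Intact, between 252 and 346 CPM in sub-SCI and between 154 and 168 CPM in +PBS-4w. None of these markers was at 0 in any group. For 6 neutrophil markers the range was 11.8 to 143 CPM in Intact and 103 to 128 CPM in sub-SCI, so the groups overlapped. The 6 fibroblast markers summed to 123 to 1026 CPM in Intact and to 6554 to 13524 CPM in sub-SCI, and 7 neuronal markers to 3464 to 4376 CPM and 343 to 996 CPM. Their part in the results below was not tested. In whole tissue, more cells of a type and more RNA per cell cannot be told apart.

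Promoters are printed for 5 ligands whose levels are described below, to show the sequence upstream of genes whose levels followed different courses. They were taken from RefSeq on the GRCr8 build and run 5′ to 3′ from 250 bases before the gene start to 50 bases after it. Capitals mark GGG, any 3 bases and TTCC, an approximation of an NF-kB element, read on both strands, and a longer run of capitals holds overlapping matches. Cxcl1 and Cxcl2 lie on the reverse strand at chr14:17479272-17479571 and chr14:17467206-17467505, and Cxcl10 on the forward strand at chr14:15988816-15989115. Ccl7 lies on the forward strand at chr10:67513845-67514144 and Ccl6 on the reverse strand at chr10:68883317-68883616.
Cxcl1: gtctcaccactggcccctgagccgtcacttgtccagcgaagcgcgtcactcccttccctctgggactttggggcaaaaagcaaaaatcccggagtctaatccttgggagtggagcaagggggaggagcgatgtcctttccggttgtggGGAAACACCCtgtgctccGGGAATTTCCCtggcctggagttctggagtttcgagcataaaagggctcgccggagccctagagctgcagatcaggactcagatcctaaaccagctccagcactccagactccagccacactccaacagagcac
Cxcl2: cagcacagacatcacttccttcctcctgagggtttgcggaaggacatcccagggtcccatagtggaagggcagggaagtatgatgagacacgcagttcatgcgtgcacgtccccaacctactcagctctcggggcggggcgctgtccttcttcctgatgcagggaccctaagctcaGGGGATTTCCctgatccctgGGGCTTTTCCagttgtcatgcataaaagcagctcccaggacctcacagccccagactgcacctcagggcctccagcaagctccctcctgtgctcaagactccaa
Cxcl10: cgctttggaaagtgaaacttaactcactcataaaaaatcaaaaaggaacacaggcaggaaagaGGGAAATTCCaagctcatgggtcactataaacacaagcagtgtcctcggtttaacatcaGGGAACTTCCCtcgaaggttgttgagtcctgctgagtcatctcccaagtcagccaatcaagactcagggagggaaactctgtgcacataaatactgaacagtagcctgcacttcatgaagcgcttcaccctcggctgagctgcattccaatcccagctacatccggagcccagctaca
Ccl7: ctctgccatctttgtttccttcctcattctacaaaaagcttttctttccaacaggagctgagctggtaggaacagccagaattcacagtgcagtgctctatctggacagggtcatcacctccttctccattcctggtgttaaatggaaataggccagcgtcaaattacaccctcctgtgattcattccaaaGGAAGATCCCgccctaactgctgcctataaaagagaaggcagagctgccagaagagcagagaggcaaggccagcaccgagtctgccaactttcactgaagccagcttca
Ccl6: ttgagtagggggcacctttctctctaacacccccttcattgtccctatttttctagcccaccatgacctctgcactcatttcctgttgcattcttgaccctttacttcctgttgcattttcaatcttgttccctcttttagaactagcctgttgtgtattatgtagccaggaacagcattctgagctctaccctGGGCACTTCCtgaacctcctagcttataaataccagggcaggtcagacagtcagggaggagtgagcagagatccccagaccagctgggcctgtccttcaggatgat

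The Cxcl1 window held matches that began 102, 84 and 83 bases before the gene start, the first and the last of them on the opposite strand and the last overlapping the one before it. In Cxcl2 they began 74 and 54 bases before the start. In Cxcl10 they began at 187, 128 and 127 bases before it, the last on the opposite strand, and a match to GAAA, any 2 bases and GAAA, an approximation of an interferon-stimulated response element read on both strands, lay in small letters 243 bases before the start. Ccl7 and Ccl6 had 1 match each, at 59 bases (opposite strand) and 56 bases before the start. Promoters were found by symbol for 36 of the 47 genes, and Ccl2, Ccl3, Ccl4 and Ccl5 were among those not found. Of the 36, 10 (27.8%) held the NF-kB-like motif, against 1796 of 33469 promoters of the same length in the table (5.37%), which are not limited to the genes tested. The 5 printed promoters all belong to these 10, so none without a match is shown. The other 5 with a match were Ccl9, Ccl20, Ccr3, Cxcl6 and Cxcl11. Among the 16 genes with a promoter that were higher in sub-SCI, 6 held it (37.5%), and among the other 20 genes 4 did. The interferon-type motif was found in Ccl19 and Cxcl10, 2 of 36 genes (5.56%), against 3.92% of all promoters. A match describes the letters of the window and is neither a bound site nor a cause.

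To see how injury changed this gene set, each injured vehicle group and sub-SCI were compared with Intact using the quasi-likelihood test of edgeR, with p-values adjusted over 17990 genes after Benjamini and Hochberg. A gene was called when its absolute log2 fold change was above 1 and its adjusted p under 0.01. In sub-SCI, 22 of 47 genes were called higher (46.8%, against 16.6% of all genes tested) and 1 lower (2.13%, against 17.5%). The median log2 fold change was 2.77 over the set and -0.02 over all genes. Cxcr1 and Ccr4 had no count in any Intact library, and with both at the lower bound that a floor of 3 counts over the group allows, the median of the set was 2.40. In +PBS-1w, 27 were higher and 1 lower (background 13.5% and 12.5%). In +PBS-2w, with 2 libraries, 15 were higher and 0 lower (background 8.84% and 5.66%), and of the lower ones edgeR gave 1 at an unadjusted p under 0.05 and DESeq2 called 1, Ccl27. Without +PBS-2w replicate 1 that comparison gave 9 calls. In +PBS-4w, 28 were higher and 1 lower (background 13.3% and 10.7%). These 4 comparisons share the Intact libraries. With all replicate 1 libraries left out, they gave 22, 30, 11 and 25 calls in the same order, and without +PBS-1w replicate 2 the +PBS-1w comparison gave 26.

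**Figure D1:**
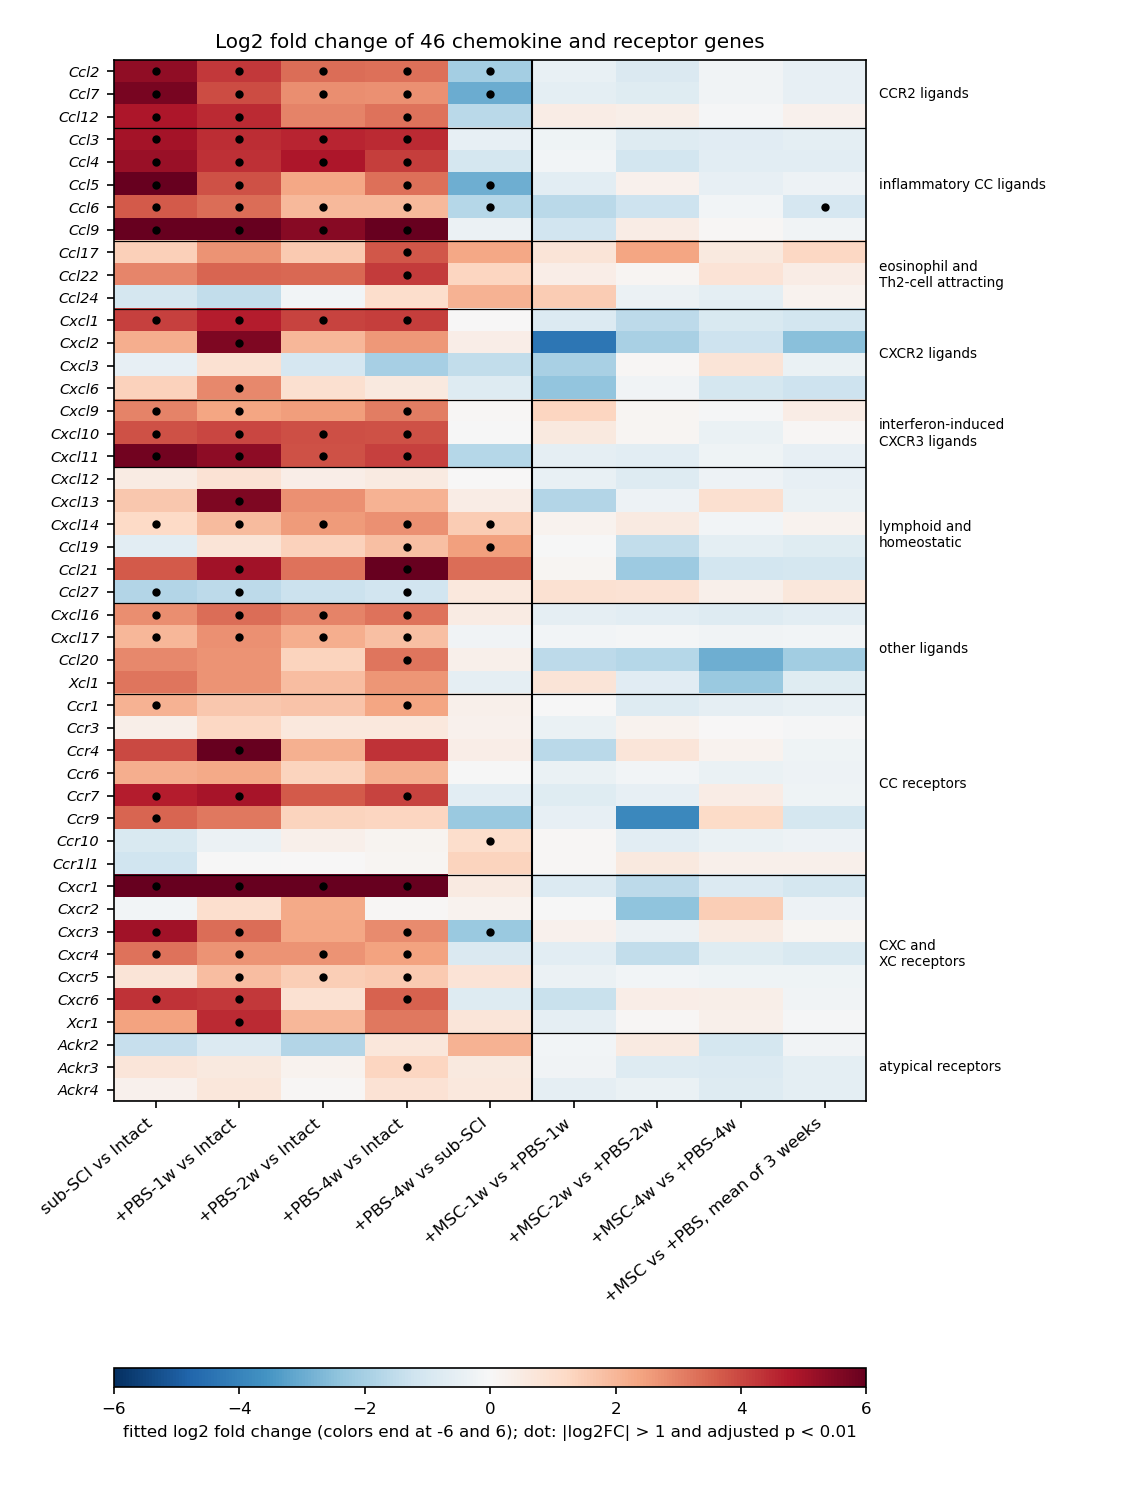
Fitted log2 fold change of 46 genes (lines of the map, grouped by role) in 9 comparisons (columns), with a red scale for higher and a blue one for lower and a dot where a gene was called. The 4 comparisons with Intact are mostly red, with blue for Ccl27, whereas the +MSC columns are mostly pale, with darker blue for Cxcl2 at 1 wpt and Ccr9 at 2 wpt, and hold a single dot, at Ccl6 in the mean of 3 weeks. The Cxcl2 value comes largely from 1 library, +PBS-1w replicate 2. That of Ccr9 compares no count in +MSC-2w with 1 and 3 counts in the +PBS-2w libraries, at least 1.42-fold by a floor of 3 counts for the group.

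**Figure D2:**
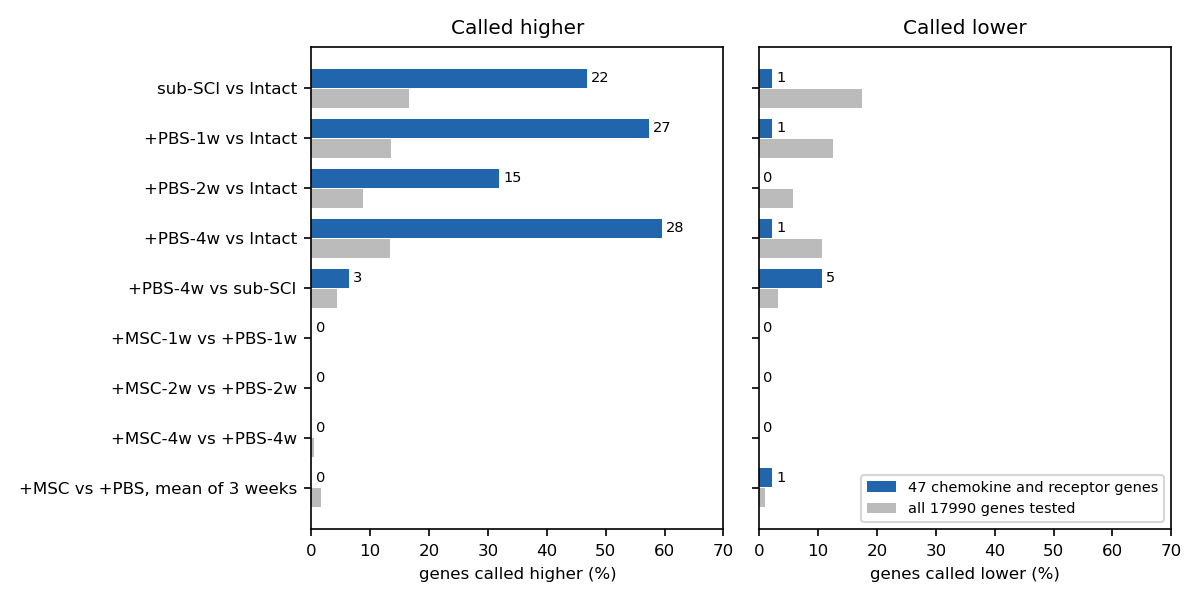
Percent of the 47 chemokine and receptor genes (blue) and of all 17990 genes tested (gray) called higher (left) or lower (right) in each comparison, with the number of chemokine and receptor genes beside the bar. The blue bars exceed the gray ones on the left in the 4 comparisons with Intact, where 15 to 28 genes were called higher.

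The ligands of CCR2, which draw monocytes out of the blood, were called higher in 3 of 3 cases in sub-SCI, in +PBS-1w and in +PBS-4w, and in 2 of 3 in +PBS-2w. Ccl2, the main monocyte attractant, stood at 0.109, 0.596, 0.555 and 0.722 CPM in the Intact libraries and at 15.9, 25.8 and 20.5 CPM in sub-SCI. The groups lay far apart, and the log2 fold change was 5.33 ± 0.54 (± SE here and below, adjusted p = 3.44e-08, edgeR). This SE was derived from the test, as the absolute log2 fold change over the square root of its F statistic. It is a rough guide only, above all for genes with few counts in a group. Ccl7, a close neighbor of Ccl2 in function, went from 0.218, 0.366, 0.185 and 0.266 CPM to 7.82, 17.6 and 15.7 CPM (log2 fold change 5.69 ± 0.57, adjusted p = 2.54e-08, edgeR). Every sub-SCI library was above every Intact library. Ccl12, a rodent CCR2 ligand, was at 0, 0.183, 0 and 0.0760 CPM in Intact and at 2.35, 2.07 and 1.86 CPM in sub-SCI (log2 fold change 4.87 ± 0.90, adjusted p = 7.73e-05, edgeR).

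All 5 inflammatory CC ligands Ccl3, Ccl4, Ccl5, Ccl6 and Ccl9, which attract monocytes and T cells, were higher in sub-SCI, +PBS-1w and +PBS-4w, and 4 of 5 in +PBS-2w, where Ccl5 missed the adjusted p (0.0135, edgeR). Ccl5, made by T cells and macrophages, stood at 0.109, 0.321, 0.278 and 0.152 CPM in Intact and at 21.8, 16.3 and 11.3 CPM in sub-SCI (log2 fold change 6.22 ± 0.65, adjusted p = 5.65e-08, edgeR). No library of one group came near the other. Ccl9, a rodent CCR1 ligand, had no count in 2 Intact libraries and 0.0463 and 0.0380 CPM in the other 2, against 3.14, 3.77 and 3.59 CPM in sub-SCI (log2 fold change 7.01 ± 0.83, adjusted p = 2.93e-07, edgeR). The size of that fold rests on a few counts in Intact. Ccl6, another rodent CCR1 ligand made by macrophages and microglia, was the most abundant of the group, with 0.928, 3.48, 5.46 and 4.98 CPM in Intact and 48.9, 47.7 and 45.4 CPM in sub-SCI (log2 fold change 3.66 ± 0.40, adjusted p = 9.16e-08, edgeR). The 3 sub-SCI libraries hardly differed, and the lowest Intact value belonged to replicate 1. Ccl3 and Ccl4, the macrophage inflammatory proteins, had log2 fold changes of 4.97 ± 0.45 and 5.19 ± 0.48, with 4.34 to 8.99 CPM and 6.27 to 10.3 CPM in sub-SCI and at most 0.324 and 0.342 CPM in Intact. Close copies such as Ccl3 and Ccl4, or Ccl6 and Ccl9, can share reads, and how the counting treated such reads is not given in the sources used here.

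The interferon-induced ligands of CXCR3, which attract activated T cells, were called in 3 of 3 cases in sub-SCI, +PBS-1w and +PBS-4w and in 2 of 3 in +PBS-2w. Cxcl10 stood at 0.764, 1.56, 0.694 and 0.988 CPM in Intact and at 13.9, 22.3 and 7.36 CPM in sub-SCI (log2 fold change 3.84 ± 0.41, adjusted p = 7.7e-08, edgeR). Its groups did not overlap, although the sub-SCI libraries differed among themselves. Cxcl11 went from 0.0463 to 0.275 CPM in Intact to 5.32 to 9.21 CPM in sub-SCI, and Cxcl9 from 0.139 to 1.05 CPM to 2.07 to 4.13 CPM, with log2 fold changes of 5.81 ± 0.63 and 2.98 ± 0.71. Their receptor Cxcr3, carried by T and NK cells, stood at 0.109, 0.321, 0.0925 and 0.114 CPM in Intact and at 6.28, 4.86 and 4.92 CPM in sub-SCI (log2 fold change 5.03 ± 0.66, adjusted p = 1.26e-06, edgeR). Every sub-SCI library was above every Intact library for both the receptor and its 3 ligands.

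Of the 4 ligands of CXCR2, which attract neutrophils, 1 was called in sub-SCI, 3 in +PBS-1w and 1 each in +PBS-2w and +PBS-4w. Cxcl1 was called in each comparison with Intact, with 0, 0.137, 0.0463 and 0.380 CPM in Intact and 2.35, 3.30 and 2.51 CPM in sub-SCI (log2 fold change 4.11 ± 0.73, adjusted p = 4.7e-05, edgeR). Cxcl2, Cxcl3 and Cxcl6 were not called in sub-SCI, where their log2 fold changes were 2.17, -0.50 and 1.37 (adjusted p = 0.135, 0.646 and 0.119, edgeR). Cxcl2 and Cxcl6 were called in +PBS-1w. There Cxcl2 stood at 0.327, 14.3 and 0.480 CPM, with the high value in replicate 2, and without that library its log2 fold change went from 5.61 to 1.97 (adjusted p = 0.1, edgeR). The call of Cxcl2 thus rested on 1 library. Cxcl3 showed the same library at 2.28 CPM beside 0.149 and 0.120 CPM, and without it its log2 fold change turned from 0.90 to -1.70, neither of them called. Cxcl6 stood at 0.624, 1.72 and 4.52 CPM, with the high value in replicate 3, and it lost its call without that library (log2 fold change 2.89 and 1.92, the latter with adjusted p = 0.0447, edgeR). Cxcl1, Cxcl2 and Cxcl3 are close copies whose reads may be shared. Among the neutrophil receptors, Cxcr1 had no count in any Intact library and 2.24, 4.28 and 2.85 CPM in sub-SCI, at least 91.6-fold over a floor of 3 counts for the group. Cxcr2 was not called by edgeR in any comparison and reached 1.56 CPM in Intact replicate 4 beside at most 0.183 CPM in the other Intact libraries. Leaving out that library raised its log2 fold change in sub-SCI from -0.16 to 2.60 (adjusted p = 0.0297, edgeR). In the same Intact replicate 4 the summed neutrophil markers were also the highest of the group, at 143 CPM against 11.8 to 44.2 CPM. Cxcr1, by contrast, had no count in that library. In +PBS-1w, Cxcr1 stood at 3.21, 1.16 and 10.8 CPM in replicates 1, 2 and 3, where the neutrophil markers summed to 130, 169 and 47.2 CPM. The part of these markers' cells in the levels of Cxcr1 and Cxcr2 was not tested.

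**Figure D3:**
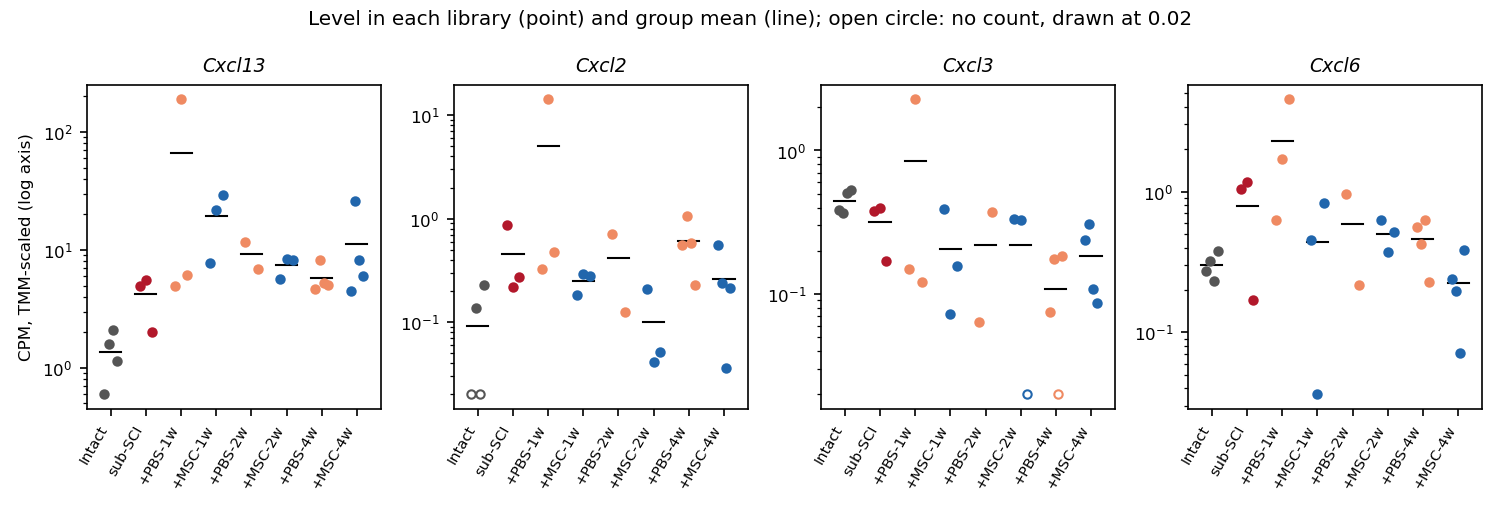
Level of Cxcl13, Cxcl2, Cxcl3 and Cxcl6 in each library (point, CPM on a log axis) with the group mean (line) in all 8 groups, where an open circle stands for no count. For Cxcl13, Cxcl2 and Cxcl3, 1 +PBS-1w library lies far above the other 2, and for Cxcl6 the spread in +PBS-1w reaches from 0.624 to 4.52 CPM.

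Lymphoid and homeostatic chemokines place lymphocytes and stem cells in resting tissue, and they held both the most abundant gene of the set and its only lowered one. Cxcl14, a homeostatic ligand whose receptor is not settled, had the highest level per gene length in every group, with 65.9 CPM per kb in Intact and 151 CPM per kb in sub-SCI. Its values were 95.6, 106, 98.0 and 125 CPM in Intact and 315, 207 and 208 CPM in sub-SCI (log2 fold change 1.20 ± 0.36, adjusted p = 0.00619, edgeR). The groups did not overlap, yet the call in sub-SCI was lost without sub-SCI replicate 1 (0.97) or without Intact replicate 1, 2 or 3 (1.21, 1.26 and 1.16), with adjusted p-values of 0.0415, 0.0134, 0.0112 and 0.0167 (edgeR). Without all replicate 1 libraries it had 0.96 (adjusted p = 0.0191, edgeR). Ccl27, a ligand of CCR10 known from skin, was the only gene called lower, and stood second per length in Intact at 15.6 CPM per kb. It went from 17.8, 10.2, 11.5 and 12.5 CPM in Intact to 4.48, 4.93 and 2.14 CPM in sub-SCI (log2 fold change -1.76 ± 0.38, adjusted p = 0.000405, edgeR). It was also called lower in +PBS-1w and +PBS-4w, at -1.56 and -1.14, and had an adjusted p of 0.0229 in +PBS-2w by edgeR. Close copies of Ccl21 and Ccl27 are known in mouse, so the counts of both are taken as uncertain.

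Cxcl12, the stromal ligand of CXCR4, came next per length in Intact and was not called in any comparison. It stood at 67.4, 78.7, 73.5 and 74.9 CPM in Intact and at 105, 102 and 104 CPM in sub-SCI, which did not overlap but gave a log2 fold change of 0.50 ± 0.37 (adjusted p = 0.246, edgeR). Its receptor Cxcr4, found on leukocytes, progenitors and glia, rose from 7.97, 7.15, 8.23 and 11.7 CPM to 84.9, 84.1 and 83.8 CPM. That was a log2 fold change of 3.26 ± 0.27, with the smallest adjusted p of the set (2.33e-09, edgeR). Cxcr4 was second per length in sub-SCI at 48.2 CPM per kb, ahead of Cxcl16 at 45.6, and these neighbors in the order lay within the SD of Cxcl16 (5.17). Ackr3, which binds and removes CXCL12, had 9.0 to 17.6 CPM in Intact and 16.0 to 32.5 CPM in sub-SCI, overlapped between the groups and was not called (log2 fold change 0.72, adjusted p = 0.0364, edgeR). It was called in +PBS-4w, at 1.31 (adjusted p = 0.00041, edgeR).

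Cxcl13, the B-cell attractant, stood at 0.600 to 2.08 CPM in Intact and 2.03 to 5.62 CPM in sub-SCI, a log2 fold change of 1.62 that was not called (adjusted p = 0.135, edgeR). In +PBS-1w its values were 4.99, 190 and 6.08 CPM. With replicate 2 its log2 fold change was 5.61, and without it 2.02, still called (adjusted p = 0.00808, edgeR). That library also had the highest summed T and NK cell markers of its group, 420 CPM against 229 and 238 CPM, and the lowest macrophage markers, 4488 CPM against 8472 and 10448 CPM, whereas its B-cell markers summed to 7.31 CPM, between 1.55 and 8.37 CPM. Their part in the Cxcl13 level was not tested. Cxcr5, the receptor of CXCL13, was called in +PBS-1w, +PBS-2w and +PBS-4w, at 1.85, 1.46 and 1.59, and had 0.76 in sub-SCI (adjusted p = 0.0317, edgeR).

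Ccl19 and Ccl21 guide T cells and dendritic cells through CCR7. Ccl21 had no count in 2 Intact libraries and 0.183 and 0.114 CPM in the other 2, and it reached 3.09, 17.2, 4.16 and 18.6 CPM in +PBS-4w (log2 fold change 7.02 ± 1.44, adjusted p = 0.000364, edgeR). It was not called in sub-SCI, at 3.68 ± 1.54 (adjusted p = 0.0431, edgeR). Ccl19 was called only in +PBS-4w, at 1.83 (adjusted p = 0.00362, edgeR), and stood at -0.64 in sub-SCI. Ccr7 was at 0, 0.0458, 0 and 0.0760 CPM in Intact and at 0.581, 1.45 and 0.949 CPM in sub-SCI (log2 fold change 4.70 ± 1.09, adjusted p = 0.000775, edgeR). It was called in +PBS-1w and +PBS-4w as well.

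Among the remaining ligands, Cxcl16, a membrane-bound chemokine that is also a scavenger receptor, went from 5.84, 11.3, 13.8 and 14.6 CPM in Intact to 78.2, 86.4 and 68.8 CPM in sub-SCI (log2 fold change 2.77 ± 0.31, adjusted p = 1.12e-07, edgeR). The groups lay well apart, and it was called in every comparison with Intact. Its receptor Cxcr6, of T and NKT cells, stood at 0 to 0.183 CPM in Intact and 1.63 to 2.44 CPM in sub-SCI (log2 fold change 4.34 ± 0.94), was called in +PBS-1w and +PBS-4w, and had 0.92 in +PBS-2w (adjusted p = 0.589, edgeR). Cxcl17, a mucosal chemokine, rose from 0.764 to 1.10 CPM to 1.76 to 6.67 CPM (log2 fold change 1.99 ± 0.41, adjusted p = 0.000215, edgeR). Ccl20, which attracts CCR6-bearing lymphocytes, had 0 to 0.190 CPM in Intact and 0.378 to 1.01 CPM in sub-SCI and missed the threshold there (log2 fold change 2.89, adjusted p = 0.0195, edgeR). Ccl20 was called in +PBS-4w at 3.21 (adjusted p = 0.00937, edgeR), where 1 library, replicate 2, was high, and without it the value was 1.26 (adjusted p = 0.255, edgeR). That call was lost in 20 of 26 fits that left out 1 library. Ccr6, its receptor, missed the threshold in sub-SCI (2.18, adjusted p = 0.0214, edgeR). Of the ligands that attract eosinophils and Th2 cells, Ccl17 and Ccl22 were called only in +PBS-4w, at 3.74 and 4.21, and Ccl24 in no comparison with Intact.

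Of the 9 CC receptors, 3 were called in sub-SCI, 2 in +PBS-1w and 2 in +PBS-4w. In +PBS-2w edgeR called 0, with 3 at an unadjusted p under 0.05, Ccr1 and Ccr7 among them, and DESeq2 called 1, Ccr7. Ccr1, a receptor of monocytes and neutrophils, was called in sub-SCI and +PBS-4w at 2.07 and 2.36. Ccr9 was called in sub-SCI at 3.51 with at most 0.407 CPM, and Ccr4 and the dendritic-cell receptor Xcr1 in +PBS-1w. Ccr4 had no count in any Intact library and a mean of 0.342 CPM in +PBS-1w, at least 10.04-fold over the floor. Ccr3, Ccr10, Ccr1l1, Ackr2 and Ackr4 were called in no comparison with Intact, nor was Xcl1, the ligand of XCR1. Without sub-SCI replicate 3 the call of Ccr1 in sub-SCI was lost, at 1.22 (adjusted p = 0.101, edgeR), and that of Ccr9 was lost without Intact replicate 2 or 3 or sub-SCI replicate 2. In +PBS-1w the calls of Cxcl9 and Ccl21 were lost in 5 and 6 of the fits that left out 1 library, with adjusted p-values up to 0.058 and 0.0225 (edgeR). In +PBS-2w the calls lost without replicate 1 were those of Ccl6, Ccl7, Cxcl1, Cxcl11, Cxcl17 and Cxcr5. In +PBS-4w Ccl12, Ccl19, Ccl22, Ccl27, Ccr7 and Cxcr6 each lost their call without at least 1 library, with adjusted p-values up to 0.0171, 0.0133, 0.0104, 0.0395, 0.0131 and 0.0109 (edgeR) in that order.

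**Figure D4:**
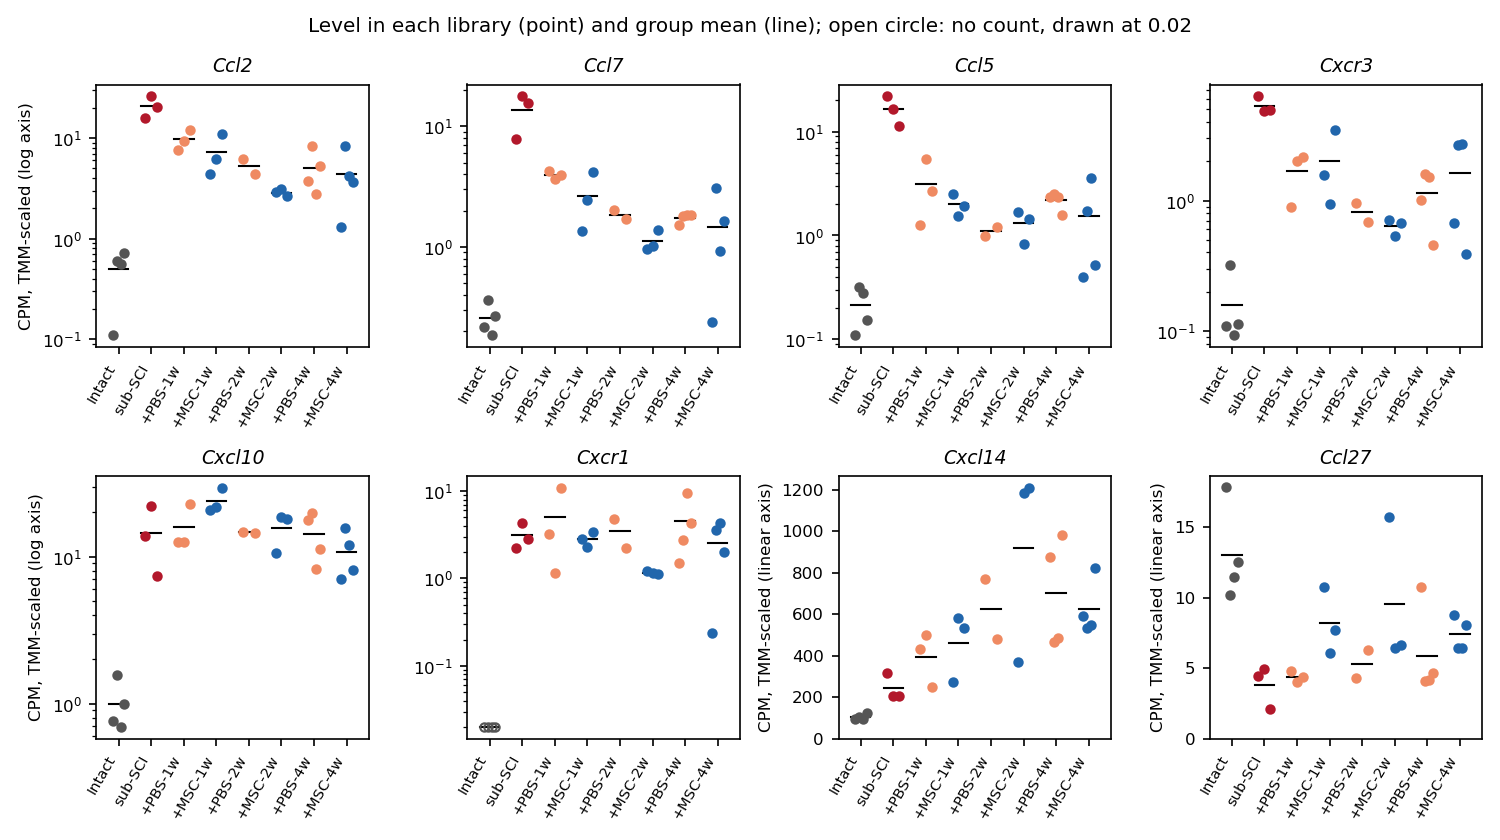
Level of 8 genes in each library (point, CPM) with the group mean (line) in the 8 groups, on a log axis except for Cxcl14 and Ccl27, which have a linear axis. Ccl2, Ccl7, Ccl5 and Cxcr3 are highest in sub-SCI, Cxcl10 stays near its sub-SCI level, Cxcl14 is higher at 4 wpt than in sub-SCI, and Ccl27 is highest in Intact.

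Between these end points the vehicle groups lay as follows. Ccl2 stood at 7.61, 9.40 and 12.1 CPM in +PBS-1w and at 6.18 and 4.41 CPM in +PBS-2w, each below the sub-SCI libraries. Ccl7 stood at 4.28, 3.66 and 3.92 CPM and at 2.02 and 1.69 CPM in these groups, and Ccl5 at 1.25, 5.41 and 2.68 CPM and at 0.992 and 1.22 CPM. Cxcl14 had 435, 501 and 249 CPM and then 768 and 481 CPM, with 1 +PBS-1w library inside the sub-SCI range. Cxcl10 stayed in its sub-SCI range in all but 1 of these libraries, with 12.6, 12.6 and 22.9 CPM and 14.8 and 14.6 CPM. Cxcr1 stood at 3.21, 1.16 and 10.8 CPM and at 4.74 and 2.25 CPM, with 1 high +PBS-1w library.

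How the set changed from the subacute stage on was asked by comparing +PBS-4w with sub-SCI, groups that share no library. Here 3 genes were called higher (6.38%, against 4.28% of all genes tested) and 5 lower (10.6%, against 3.09%), while the median log2 fold change was 0.08 over the set and 0.06 over all genes. The genes called lower were Ccl7, Ccl5, Cxcr3, Ccl2 and Ccl6, which attract or mark monocytes and T cells. Ccl7 stood at 1.53, 1.80, 1.83 and 1.84 CPM in +PBS-4w, below every sub-SCI value given above (log2 fold change -2.97 ± 0.47, adjusted p = 0.000134, edgeR). Ccl5 stood at 2.35, 2.50, 2.33 and 1.56 CPM (log2 fold change -2.91 ± 0.53, adjusted p = 0.000447, edgeR). Both genes lay below their sub-SCI values in every +PBS-4w library. Cxcr3 stood at 1.01, 1.59, 1.52 and 0.459 CPM (log2 fold change -2.22 ± 0.55, adjusted p = 0.00515, edgeR). Ccl2 was at 3.76, 8.29, 2.77 and 5.28 CPM (log2 fold change -2.04 ± 0.45, adjusted p = 0.00237, edgeR), still above every Intact library. Ccl6 was at 12.6, 11.4, 15.1 and 18.6 CPM (log2 fold change -1.72 ± 0.37, adjusted p = 0.00187, edgeR). In the same groups the summed T and NK cell markers went from 252 to 346 CPM down to 154 to 168 CPM and the macrophage markers from 9350 to 11854 CPM down to 5235 to 9124 CPM, and their part was not tested.

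The genes called higher in +PBS-4w than in sub-SCI were Ccl19, Cxcl14 and Ccr10. Ccl19 stood at 1.16, 0.834 and 0.543 CPM in sub-SCI and at 5.96, 3.81, 3.85 and 5.28 CPM in +PBS-4w (log2 fold change 2.47 ± 0.56, adjusted p = 0.00274, edgeR). Cxcl14 reached 874, 467, 488 and 981 CPM (log2 fold change 1.53 ± 0.37, adjusted p = 0.00491, edgeR), above each sub-SCI library. Ccr10, the receptor of CCL27, stood at 1.54, 1.63 and 1.19 CPM in sub-SCI and at 2.50, 3.67, 3.49 and 2.57 CPM in +PBS-4w (log2 fold change 1.07 ± 0.26, adjusted p = 0.00401, edgeR). In Intact it had been at 2.32 to 3.27 CPM, so the +PBS-4w and Intact values overlapped. In the same groups the summed fibroblast markers lay at 6554 to 13524 CPM in sub-SCI and at 1014 to 3776 CPM in +PBS-4w, 6 astrocyte markers at 4327 to 9147 CPM and 11768 to 17318 CPM, and 5 Schwann cell markers at 450 to 967 CPM and 1990 to 4226 CPM. Each of these ranges was apart between the groups, and their part was not tested. Each of these 3 chemokine and receptor calls was lost without sub-SCI replicate 3, with adjusted p-values of 0.0233, 0.0333 and 0.0327 by edgeR, and without sub-SCI replicate 2 or 3 the whole comparison gave 4 calls. Those were Ccl5, Ccl6, Ccl7 and Ccr10 without replicate 2, and Ccl2, Ccl5, Ccl6 and Ccl7 without replicate 3. Ccr10 was also lost without sub-SCI replicate 1 or +PBS-4w replicate 2 or 3, Cxcl14 without +PBS-4w replicate 4, and Cxcr3 without sub-SCI replicate 1 or +PBS-4w replicate 4. Without all replicate 1 libraries the comparison gave 10 calls, and Cxcr3 had -2.06 (adjusted p = 0.0334, edgeR). By contrast the interferon-induced ligand Cxcl10 had 17.8, 19.9, 8.19 and 11.3 CPM in +PBS-4w and a log2 fold change of -0.02 ± 0.36 (adjusted p = 0.981, edgeR).

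Of the 34 genes called higher in at least 1 comparison with Intact, 12 had their highest mean among the injured vehicle groups in sub-SCI, 13 in +PBS-1w, 0 in +PBS-2w and 9 in +PBS-4w. The 12 included all 3 CCR2 ligands, Ccl3, Ccl4, Ccl5 and Ccl6, as well as Cxcr3, Cxcr4 and Cxcr6. The 13 included Cxcl1, Cxcl2 and Cxcl6 together with Cxcr1, and Cxcl13 with Cxcr5. The 9 included Ccl19 and Ccl21, the Th2 ligands Ccl17 and Ccl22, and Cxcl14. Of all 17990 genes tested, 20.2% were called higher in at least 1 of these comparisons, and of those 63.4% had their highest mean in sub-SCI, 13.8% in +PBS-1w, 4.44% in +PBS-2w and 18.4% in +PBS-4w, against 35.3%, 38.2%, 0% and 26.5% of the 34. These are orders of means, and for 13 of the 34 genes the highest mean moved to another group when 1 library of that group was left out. In +PBS-1w this held for 8 of 13 genes, namely Cxcl2 and Cxcl13 without replicate 2 and Cxcl1, Cxcr1, Cxcl10, Cxcl16, Ccl9 and Ccr7 without replicate 3. In +PBS-4w it held for Cxcl9, Ccl20, Ccr1 and Cxcl14 without replicate 1, 2, 3 and 4 in that order, and in sub-SCI for Cxcr6 without replicate 1. Without +PBS-1w replicate 3 the mean of Cxcr1 was 2.18 CPM, under the 4.52 CPM of +PBS-4w, and that of Cxcl1 was 2.28 CPM, under 2.79 CPM. In that library the Schwann cell markers summed to 3766 CPM, against 505 and 566 CPM in replicates 1 and 2. Its fibroblast markers summed to 7600 CPM against 3332 and 3314 CPM, and its neuronal markers to 610 CPM against 1277 and 1178 CPM. Their part was not tested.

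Whether hUC-MSCs changed the set was asked by comparing +MSC with +PBS at each week and by the mean of the 3 weekly differences. Week by week edgeR called 0 of 47 genes in either direction. The background of calls was 0% higher and 0.0111% lower at 1 wpt, 0% in both directions at 2 wpt, and 0.495% higher and 0% lower at 4 wpt. Few genes of any kind were thus called by this fit. With DESeq2 at the same thresholds, the paper reported more genes reversed by hUC-MSCs at each week than were called here. The scarcity of calls therefore belongs to the method used as well. At an unadjusted p under 0.05, edgeR gave 1 higher and 4 lower genes at 1 wpt (background 10.6% and 7.34%), 1 and 9 at 2 wpt (5.49% and 6.84%), and 0 and 5 at 4 wpt (11.2% and 11.3%). DESeq2 called 2, 1 and 0 genes on all libraries, and 1, 3 and 0 on the compared groups, all of them lower. These were Ccl6 and Cxcl2 at 1 wpt, and Cxcr4, Ccl19 and Cxcr2 at 2 wpt. The share of all genes that DESeq2 called is not given here, so these DESeq2 counts have no background beside them. For Cxcl2 at 1 wpt, DESeq2 on the compared groups gave no adjusted p. Its log2 fold change by edgeR was -4.32, and -0.69 without +PBS-1w replicate 2. Cxcr2 stood at 1.82 and 2.72 CPM in +PBS-2w and at 0.376, 0.451 and 0.462 CPM in +MSC-2w, and in the same libraries the neutrophil markers summed to 402 to 433 CPM and 95.1 to 132 CPM. Their part was not tested. The medians of the set were -0.39, -0.37 and -0.26 on the log2 scale, against -0.002, 0.002 and -0.039 over all genes.

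Over the mean of the 3 weeks, 1 gene, Ccl6, was called lower (2.13%, against 0.956% of all genes tested) and 0 higher (background 1.61%). At an unadjusted p under 0.05 edgeR gave 14 lower genes (29.8%, background 18.2%) and 2 higher ones (4.26%, background 18%). DESeq2 called 3 genes lower on all libraries and 2 on the compared groups, and 0 higher in both, again without a background from DESeq2. Without a fold threshold, at an adjusted p under 0.05, edgeR gave 7 lower and 1 higher gene (background 10.9% and 12.3%). The lower ones were Cxcr4, Ccl6, Cxcl16, Cxcl2, Ackr3, Ccl20 and Cxcl1, and the higher one was Ccl27. Shares of 7 and 1 of 47 are near or below that background.

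Cxcr4 had the smallest p of the set in the mean of 3 weeks. Its values were 49.7, 40.7 and 82.7 CPM in +PBS-1w and 47.8, 30.0 and 35.4 CPM in +MSC-1w, which overlapped. At 2 wpt they were 71.6 and 40.8 CPM in +PBS-2w against 22.2, 19.3 and 19.1 CPM in +MSC-2w. At 4 wpt they were 47.1, 49.5, 49.0 and 41.0 CPM in +PBS-4w against 16.3, 34.3, 38.2 and 25.4 CPM in +MSC-4w. Every +MSC library was below every +PBS library at 2 and 4 wpt, and all of them stayed above the Intact range. The log2 fold changes were -0.61, -1.48 and -0.71, and their mean was -0.93 ± 0.16 (adjusted p = 0.000747, edgeR), just short of the fold threshold. It ended at -1.05, past the threshold, without +PBS-2w replicate 2. Over the fits that changed the method or left out all replicate 1 libraries, the mean for Cxcr4 lay between -0.94 and -0.84. Its ligand Cxcl12 had -0.51 ± 0.23 in the mean of 3 weeks (adjusted p = 0.107, edgeR), and Ackr3 had -0.61 ± 0.18 (adjusted p = 0.0186, edgeR).

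Ccl6 stood at 38.4, 52.0 and 25.7 CPM in +PBS-1w and at 10.6, 15.6 and 11.5 CPM in +MSC-1w. At 2 wpt it had 21.6 and 7.12 CPM in +PBS-2w and 4.97, 7.18 and 6.22 CPM in +MSC-2w. At 4 wpt it had 12.6, 11.4, 15.1 and 18.6 CPM in +PBS-4w and 15.3, 13.7, 10.9 and 10.8 CPM in +MSC-4w. The groups were thus apart at 1 wpt and overlapped at 2 and 4 wpt. The log2 fold changes were -1.62, -1.23 and -0.18, and their mean was -1.01 ± 0.23 (adjusted p = 0.0046, edgeR). The difference of the week 4 from the week 1 change was 1.43, with an adjusted p of 0.999 by edgeR, so the weeks were not shown to differ. The call of Ccl6 lay at the edge of the fold threshold and was kept in 18 of 26 fits that left out 1 library. It was lost without +PBS-1w replicate 2 (-0.92), +MSC-1w replicate 1 (-0.97) or 3 (-0.99), +PBS-2w replicate 1 (-0.69), +MSC-2w replicate 1 (-0.97), +PBS-4w replicate 4 (-0.96) and +MSC-4w replicate 3 or 4 (-0.99 each). Without all replicate 1 libraries Ccl6 had -0.65 (adjusted p = 0.0337, edgeR).

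Cxcl16 was the only gene of the set whose +MSC libraries were all below the +PBS libraries at each of the 3 weeks. It stood at 91.3, 107 and 148 CPM in +PBS-1w and at 65.9, 82.5 and 88.3 CPM in +MSC-1w. At 2 wpt it had 105 and 77.3 CPM against 36.9, 70.5 and 68.4 CPM. At 4 wpt it had 93.0, 146, 101 and 103 CPM against 35.7, 87.9, 78.4 and 59.5 CPM. The differences were modest and regular, with a mean log2 fold change of -0.65 ± 0.18 (adjusted p = 0.0142, edgeR). Over the fits that changed the method or left out all replicate 1 libraries, that mean lay between -0.72 and -0.46. Groups apart in this sense were found for 5 genes lower and 2 higher at 1 wpt (background 11.6% and 15.3%), 16 and 3 at 2 wpt (18.4% and 18.6%) and 4 and 1 at 4 wpt (4.47% and 6.08%). The 2 wpt comparison, with 2 against 3 libraries, separates groups most easily. The share of all genes tested that were apart at all 3 weeks was not counted, so how unusual Cxcl16 is in this respect is not known.

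**Figure D5:**
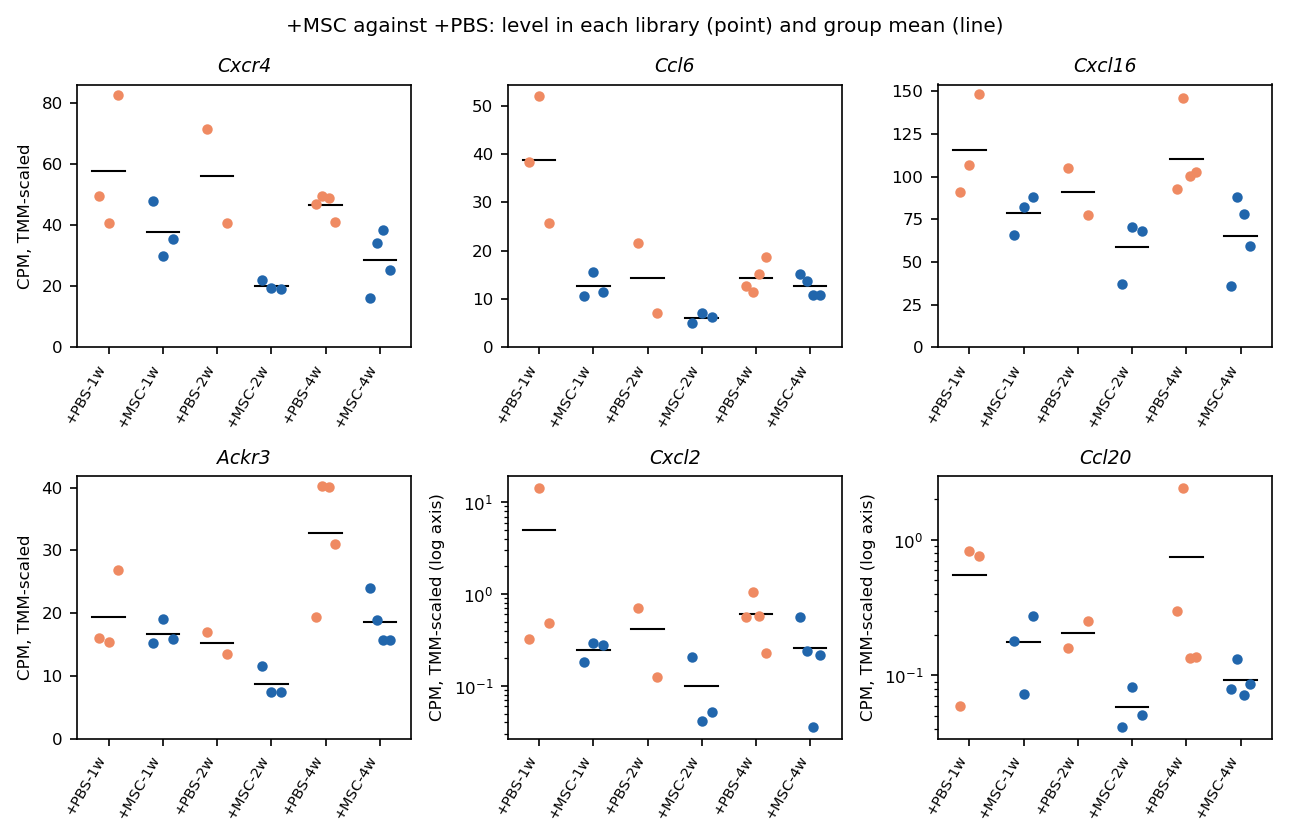
Level of 6 genes in each +PBS and +MSC library (point, CPM) with the group mean (line) at 1, 2 and 4 wpt, on a linear axis for Cxcr4, Ccl6, Cxcl16 and Ackr3 and on a log axis for Cxcl2 and Ccl20. Cxcl16 is lower in every +MSC library than in the +PBS libraries of its week, Ccl6 differs most at 1 wpt, and the high +PBS means of Cxcl2 at 1 wpt and Ccl20 at 4 wpt come from 1 library each.

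Among the other genes with a small p in the mean of 3 weeks, Cxcl2, Ccl20 and Cxcl1 were scarce. Cxcl2 had -2.51 ± 0.70 (adjusted p = 0.0142, edgeR), and without +PBS-1w replicate 2 it had -1.29 (adjusted p = 0.0784, edgeR). Ccl20 had -2.08 ± 0.64 (adjusted p = 0.0237, edgeR). Its +PBS-4w values were 0.298, 2.40, 0.134 and 0.138 CPM, with 1 high library, against 0.0796, 0.131, 0.0716 and 0.0860 CPM in +MSC-4w. The nearest values, 0.131 CPM in +MSC-4w and 0.134 CPM in +PBS-4w, rest on 6 and 3 counts. Ccl20 is thus counted among the genes apart at 4 wpt by less than the worth of 1 count. Cxcl1 had -1.10 ± 0.37 (adjusted p = 0.0346, edgeR). Ccl27, the gene lowered by injury, had 0.69 ± 0.23 (adjusted p = 0.0306, edgeR), with 6.05 to 10.8 CPM in +MSC-1w above 4.03 to 4.79 CPM in +PBS-1w, and with overlap at 4 wpt. At 1 wpt Cxcl13 and Cxcl3 had the other sign without +PBS-1w replicate 2, with 1.82 in place of -1.77 and 0.63 in place of -1.96, and neither was called with or without it.

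By sign alone, 21 of 47 genes were lower in +MSC at all 3 weeks (background 30.5%) and 4 were higher at all 3, namely Ccl17, Ccl22, Ccl27 and Ccr1l1 (background 27.7%). In the mean of 3 weeks 37 of 47 genes were below 0 (78.7%, against 52.4% of all genes tested), and so were the 4 CXCR2 ligands and the 5 ligands Ccl3, Ccl4, Ccl5, Ccl6 and Ccl9, with medians of -1.16 and -0.57. Cxcl3, a CXCR2 ligand, was above 0 at 2 and 4 wpt, and its mean of -0.38 became 0.49 without +PBS-1w replicate 2, a library without which that of Cxcl2 was -1.29. Ccl9 was at 0.12 without all replicate 1 libraries. The CXCR3 ligands had a median of 0.09, with 2 of 3 above 0. Of the 22 genes called higher in sub-SCI, 17, 15 and 17 were lower in +MSC than in +PBS at 1, 2 and 4 wpt (77.3%, 68.2% and 77.3%), whereas of all 2981 genes called higher in sub-SCI the shares were 94.7%, 84.8% and 86.2%. The exceptions in these counts include Cxcl10 and Ccl12 at 1 wpt, which had 0.58 and 0.43 on the log2 scale and were not called. Macrophage and monocyte markers summed to 3689 to 4877 CPM in +MSC-1w against 4488 to 10448 CPM in +PBS-1w, to 1979 to 4147 CPM against 4771 to 8835 CPM at 2 wpt, and to 4071 to 5211 CPM against 5235 to 9124 CPM at 4 wpt, so that the groups were apart at 2 and 4 wpt. The 6 fibroblast markers summed to 1658 to 2585 CPM in +MSC-1w against 3314 to 7600 CPM in +PBS-1w, to 333 to 730 CPM against 1274 to 1821 CPM at 2 wpt, and to 555 to 2094 CPM against 1014 to 3776 CPM at 4 wpt, apart at 1 and 2 wpt. The 7 neuronal markers lay the other way, at 1688 to 2519 CPM against 610 to 1277 CPM, 2234 to 3007 CPM against 1107 to 1943 CPM, and 2188 to 2724 CPM against 756 to 2246 CPM, also apart at 1 and 2 wpt. The part of these cells in the levels of Cxcr4, Ccl6, Cxcl16 and the other genes compared between +MSC and +PBS was not tested. The change from week 1 to week 4 of the +MSC effect was called by edgeR for 0 of 47 genes, with the smallest adjusted p at 0.999 and 4 genes at an unadjusted p under 0.05 (Ccl6, Cxcl13, Ccl24 and Xcl1), 2 in each direction (background 1.86% higher and 2.04% lower), and by DESeq2 for 0.

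Genes around the chemokine pathway were taken from lists of 48 ligands and receptors with other names, signal transducers and inducers, of which 44 were tested. In sub-SCI 28 of them were higher and 2 lower (background 16.6% and 17.5%), in +PBS-1w 28 and 1 (13.5% and 12.5%), in +PBS-2w 23 and 1 (8.84% and 5.66%), and in +PBS-4w 25 and 1 (13.3% and 10.7%). Among ligands and receptors, Pf4, a platelet and macrophage chemokine, had a log2 fold change of 4.57 in sub-SCI (adjusted p = 1.81e-07, edgeR), and Cmklr1, the chemerin receptor, 4.38 (adjusted p = 1.1e-08, edgeR). Cx3cr1, the fractalkine receptor of microglia, had 1.05 (adjusted p = 0.00234, edgeR), and its ligand Cx3cl1, made by neurons, -0.90 (adjusted p = 1.13e-05, edgeR), short of the fold threshold. Among signal transducers, Vav1, Was and Rac2, which link receptors to actin in leukocytes, had 3.65, 3.44 and 3.51, while Arrb1 and Elmo1 were the genes called lower, at -1.12 and -1.22. Among inducers, Il1a had 3.90 and the NF-kB subunit Nfkb2 2.38. Between +PBS-4w and sub-SCI, 0 were higher and 3 lower (background 4.28% and 3.09%), Il1a and Rac2 among the latter. In the mean of 3 weeks edgeR called 0 of the 44 in +MSC, and the smallest adjusted p-values belonged to Rarres2, the gene of chemerin, with -0.87 (adjusted p = 0.00112), Prkcd with -0.48 (0.0018) and Nfkb2 with -0.59 (0.00394), none past the fold threshold.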

How the data were processed

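Read counts per gene were deposited by the authors for 26 rat spinal cord libraries (poly(A) RNA). According to the methods, reads were trimmed with Trim Galore 0.5.0, those that mapped to human GRCh38 were removed, and the rest were aligned to Rnor6 with HISAT2 2.1.0, kept as proper pairs with SAMtools 1.9 and counted with featureCounts 1.6.4. The strand setting, annotation release and treatment of multimapping reads are not given in the sources used here.

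The deposited counts were analysed with edgeR 4.0.16 in R 4.3.3 (filterByExpr, TMM, quasi-likelihood test, 8 groups as levels, all libraries in 1 model), with Benjamini-Hochberg adjustment over 17990 genes. The thresholds were those of the study (absolute log2 fold change above 1, adjusted p under 0.01). DESeq2 1.42.0, RLE size factors, other filters, fits on the compared groups, a replicate block and leaving out each library were tried as alternatives, and the scripts were tested on simulated data. The shares of all genes tested that were called are those of the main edgeR fit. Levels are TMM-scaled CPM, divided by gene length only to compare genes. Some genes that entered the fits and counts are not reported here. The set was described by role, and values were given for the 6 highest and 3 lowest log2 fold changes among the calls in sub-SCI, the calls between +PBS-4w and sub-SCI, any call in +MSC and the 6 smallest p-values over the mean of 3 weeks, and for known pairs of ligand and receptor. The genes and lists were chosen with earlier results of these data known. Per the labels +MSC-2w had 3 libraries, where the methods state 2, and all 3 were used. Promoters were matched by symbol to RefSeq on GRCr8, another build than that of the counts, so they carry no coordinates of the counts. Ranges of total counts are given above, and a bound from a floor of 3 counts covers counting error only.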

Additional observations from a re-analysis of the deposited data

Results flagged for a closer look

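In groups of 4 libraries, 12 of 141 sets of values held 1 library whose gap to the next exceeded Dixon's 95% limit for 4 values. The gap was taken as a share of the whole range. Chance gives about 1 in 20 only for normally distributed values, which was not shown for these CPM. A set with a single library above 0 always exceeds the limit, as for Xcl1 and Ccr9 below. The 12 are therefore not read as an excess. Among ligands in Intact, Ccl24 stood at 0.0546 CPM in replicate 1 (others 0.733 to 0.833), Cxcl9 at 1.05 CPM in replicate 2 (others 0.139 to 0.218) and Xcl1 at 0.0925 CPM in replicate 3 (others 0). Among receptors in Intact, Cxcr3 stood at 0.321 CPM in replicate 2 (others 0.0925 to 0.114), Cxcr2 at 1.56 CPM in replicate 4 (others 0 to 0.183) and Ccr9 at 0.0760 CPM in replicate 4 (others 0). In +PBS-4w, Ccl20 stood at 2.40 CPM in replicate 2 (others 0.134 to 0.298) and Cxcl13 at 8.15 CPM in the same library (others 4.70 to 5.28). In +PBS-4w replicate 1, Ccl27 stood at 10.7 CPM (others 4.09 to 4.63), Cxcl17 at 5.40 CPM (others 2.62 to 2.73) and Ccl7 at 1.53 CPM (others 1.80 to 1.84). In +MSC-4w, Cxcl17 stood at 5.31 CPM in replicate 2 (others 1.91 to 2.15).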

How the results depend on the processing

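With a threshold of 0.05 on the adjusted p and none on the fold, calls went from 15 to 25 in +PBS-2w, from 8 to 16 between +PBS-4w and sub-SCI, and from 1 to 8 in the mean of 3 weeks. In +PBS-2w 24 were higher and 1 lower (background 19.7% and 17%). Between +PBS-4w and sub-SCI 7 were higher and 9 lower (13.4% and 11.6%). In the mean of 3 weeks 1 was higher and 7 lower (12.3% and 10.9%), near or below the background. DESeq2 on the compared groups gave 13 calls between +PBS-4w and sub-SCI, 1 for +MSC-1w, 3 for +MSC-2w and 2 for the mean of 3 weeks, and on all libraries it gave 2 for +MSC-1w, 1 for +MSC-2w and 3 for the mean. The fit of edgeR on the compared groups gave 3 calls between +PBS-4w and sub-SCI, namely Ccl5, Ccl6 and Ccl7, and leaving out all replicate 1 libraries gave 0 for the mean of 3 weeks. The causes were not tested. The shares of all genes called in these DESeq2 and edgeR fits are not given here. Leaving out each library in turn gave 21 to 24 calls in sub-SCI, 24 to 30 in +PBS-1w, 9 to 19 in +PBS-2w, 24 to 30 in +PBS-4w, 4 to 10 between +PBS-4w and sub-SCI, 0 to 2 in the mean of 3 weeks, and 0 in each weekly +MSC comparison and in the difference of weeks 4 and 1, whose alternatives were chosen after seeing the data. Signs turned for Cxcr2 in sub-SCI (-0.56 to 2.60), Ccl19 in sub-SCI (-0.95 to 0.023), Cxcl3 in +PBS-1w (-1.70 to 1.41), Cxcl13 (-2.32 to 1.82) and Cxcl3 (-2.83 to 0.63) in +MSC-1w against +PBS-1w, and, in values added after seeing the data, Cxcl3 in the mean of 3 weeks (-0.67 to 0.49) and Ccl9 there without all replicate 1 libraries (0.12).

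Replicate numbers were not used to pair the libraries in the main fit. No comparison with at least 3 pairs had every correlation of deviations over 0.1. Yet for +MSC-4w against +PBS-4w, libraries correlated best with the partner of their own number in 6 of 8 cases. For +PBS-1w against Intact this held in 5 of 6 cases, and for +MSC-2w against +PBS-2w in 0 of 4. Pairing was therefore neither shown nor excluded. With the replicate block the comparisons with Intact gave 24, 27, 17 and 29 calls, the one between +PBS-4w and sub-SCI 7, the weekly +MSC comparisons 0 each and their mean 1, and the log2 fold change of Cxcr2 in sub-SCI was 0.73 in place of -0.16. Genes at or under about 1 CPM, such as Ccr4, Ccr9, Xcl1, Cxcl2 and Ccl20, rest on few counts, and their folds are the least certain.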
